A study of Triticum aestivum and Triticum monococcum subsp. aegilopoides x Triticum urartu with 8 samples.

Results

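In hybrid necrosis, leaves of a cross die back although both parents are healthy and no pathogen is present. It is generally described in plants as an autoimmune-like state in which alleles from the parents act badly together, and in other plants it goes with active defence genes and falling photosynthesis genes. The measurements below compare the transcript changes that accompany type IV necrosis in a diploid wheat hybrid with those that accompany type I necrosis in a hexaploid wheat hybrid. The quantity compared is a difference of effects: the type IV effect (type IV necrosis less diploid wild type) less the type I effect (type I necrosis less hexaploid wild type), both on the log2 scale. A positive difference means that the type IV effect was the more positive, whichever way each effect went.

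The members are all transcript probes of the array that were well above background on all 8 arrays, so that both effects were measured above background. Of 37826 transcript probes, 21128 met this rule, 64 of them were left out because a spot carried an outlier flag, and 21064 (55.69% of the transcript probes) were tested. The 4 groups of 2 arrays each were hexaploid wild type and type I necrosis, both hybrids of common wheat (*Triticum aestivum*), and diploid wild type and type IV necrosis, both hybrids of *Triticum monococcum* subsp. *aegilopoides* with *Triticum urartu*. All RNA came from the first leaf of seedlings 1 week old that grew at 23 °C. The design text speaks of independent experiments, but nothing in the labels ties the arrays of a group to separate plants. The p-values therefore reflect the spread among these samples alone, and that spread may be technical.

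The wild-type and necrosis plants of each wheat were different hybrids, so other differences of genotype cannot be told apart from necrosis. Hexaploid wheat carries several homoeologous copies of most genes, and a probe may bind transcripts of more than 1 copy. In bulk leaf RNA, fewer cells of a type and less RNA per cell cannot be told apart. Slide 1 held the 4 hexaploid arrays and slide 2 the 4 diploid ones. Ploidy and slide cannot be told apart, so no level is compared between the wheats here. The type I arrays lay at positions 1 and 2 of their slide and their wild type at 3 and 4, while the diploid wild type occupied 1 and 2 and the type IV arrays 3 and 4. Place on the slide and necrosis therefore cannot be told apart in either effect or in the difference.

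The arrays differed in overall brightness. Measured by the 75th percentile of processed intensity, they stood at 1681 and 1734 in hexaploid wild type, 2409 and 2222 in type I, and 591 and 558 in diploid wild type against 1207 and 1509 in type IV. Between 27437 and 28765 probes were well above background on the hexaploid arrays and between 23626 and 24556 on the diploid arrays, and no transcript spot was saturated. The median distance between the arrays of a group was 0.212 (log2) in type IV, against 0.0624 in hexaploid wild type, 0.046 in type I and 0.0698 in diploid wild type. The type IV arrays were thus the least alike, with 2.78% of the tested probes more than 1 log2 unit apart. Probes are named by the identifiers in the files, which carry no gene descriptions and no probe sequences; no identifier matched the gene table used here. The labelled leaf tissue could therefore not be checked against leaf genes.

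Many transcripts responded differently to the necrosis types. The effects differed for 11791 probes, which is 56.0% of those tested (limma, Benjamini-Hochberg adjusted p under 0.05, two-sided). Over the alternatives tried, the share called ran from 34.6% with spike-in scaling to 73.3% without type IV replicate 1. The type IV effect was the more positive for 4559 of them (21.6% of those tested) and the more negative for 7232 (34.3%). The median called difference was 0.873 log2 units in size, and the median standard error of a difference was 0.142. A test for differences larger than 2-fold called 1786 probes (8.48%), of which 895 (4.25%) were more positive and 891 (4.23%) more negative. The ranges of the pairwise effects did not overlap for 15833 probes (75.2%), a criterion that each probe meets more easily than the test.

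Small and large differences leaned in opposite directions. Of called differences of at least 2-fold, 1941 were positive and 2902 negative. At 4-fold or more the counts were 690 and 570, and at 8-fold or more they were 350 and 139, so that 71.6% were positive. At least 32-fold differences numbered 87 positive and 9 negative, and all 24 differences of at least 256-fold were positive. The balance of the small differences depends on the scaling of the arrays, while positive differences of at least 8-fold outnumbered negative ones under every setting tried. With no filter on dim probes these counts were 839 and 559, a weaker lean than the 350 and 139 among the tested probes. When the arrays were scaled on their E1A spike-in controls instead, every difference gained the same 0.928 log2 units. The prior degrees of freedom of that fit were also infinite, so that all probes shared 1 spread in place of their own, and its calls and p-values take no account of how far apart the arrays of a single probe were. Under both changes the calls became 6749 positive and 547 negative, of which 662 and 46 were at least 8-fold. With each array centred on its median the split was 5417 positive and 5706 negative. Relative to these spike-ins, the 75th percentile was 0.415 log2 units higher in type I than in its wild type. In type IV it was 1.34 higher than in its own wild type. Spike-in signal was uneven between replicates: its mean (log2) reached 14.16 on hexaploid wild type 1 but only 13.69 on replicate 2. Both type I arrays lay between these, at 13.85 and 14.04. Diploid wild type gave 10.29 and 10.21, type IV 10.25 and 10.02. The 2 shifts and the 0.928 carry this spread and are given without an error. The part of these shifts in the result was not tested.

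**Figure D1:**
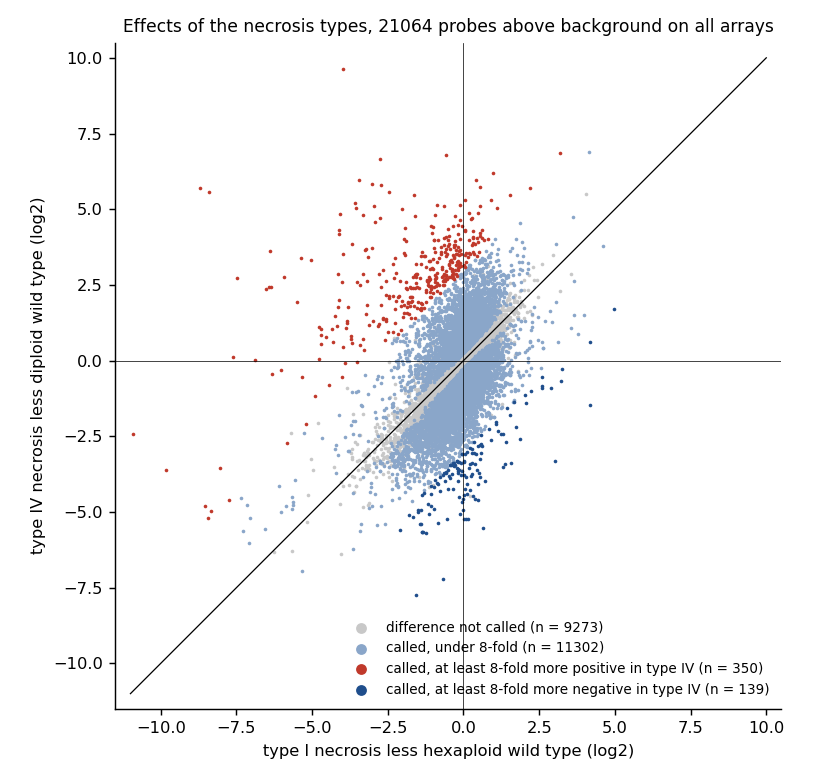
Each point is 1 of the 21064 tested probes, with the type I effect (type I necrosis less hexaploid wild type, log2) on the x axis and the type IV effect (type IV necrosis less diploid wild type, log2) on the y axis; the diagonal marks equal effects. The 350 red points (at least 8-fold more positive in type IV) lie mostly in the upper left, where transcripts were lower in type I and higher in type IV, and the 139 dark blue points lie mostly below 0 on the y axis.

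More probes were called in type IV than in type I, although this order rests on the shared estimate of spread. The type IV effect was called for 15781 probes (74.9%), with 7366 (35.0%) higher and 8415 (39.9%) lower than in diploid wild type. The type I effect was called for 10678 probes (50.7%), with 5910 (28.1%) higher and 4768 (22.6%) lower than in hexaploid wild type. The direction of the type IV split depends on the scaling: it was 9247 higher and 6826 lower with median centring, 8350 and 7333 with quantile normalization over 8 arrays, 8418 and 7400 within each wheat, and 15167 and 1506 with spike-in scaling. The type I calls kept more rises than falls in these settings, with 4239 and 1309 under spike-in scaling. With no filter on dim probes that lean was gone, with 5663 rises and 5670 falls in type I. It was also gone without hexaploid wild type replicate 2 and without either type I replicate. With array weights per group, which let the less alike type IV arrays have their own spread, the type I effect was called for 15625 probes and the type IV effect for 12629. The median size of the measured effect over all tested probes was 0.623 in type IV and 0.325 in type I. Across probes the effects had a Pearson correlation of 0.46 and a Spearman correlation of 0.506 over 21064 probes, given as a description because probes are not independent and share arrays.

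Transcripts that moved the same way in both hybrids moved further in type IV more often than in type I. Of 3559 probes that fell in both, 2035 fell further in type IV and 222 fell further in type I, and for 1302 the difference was not called. Of 3435 probes that rose in both, 1166 rose further in type IV, 209 rose further in type I, and 2060 had no called difference. With spike-in scaling the falls did not lean this way: 51 fell further in type IV and 71 in type I, while the rises still did, with 1373 against 21.

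Another 1715 probes were called in opposite directions with a called difference. Of these, 714 fell with type I but rose with type IV necrosis, and 1001 did the reverse. That balance turned with spike-in scaling, to 310 against 41, and without type I replicate 1, to 424 against 406. More numerous were differences that joined a called type IV effect with a type I effect that was not called. Such probes made up 2086 of the 4559 positive differences (type IV rise alone) and 2994 of the 7232 negative ones (type IV fall alone). A type I effect alone was behind 335 positive and 893 negative differences. With array weights per group these classes came closer together: 2107 differences with a type IV effect alone, 1717 with a type I effect alone and 2018 with opposite effects.

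The make-up of the largest differences was not the same in the positive and the negative direction. Of the 350 differences of at least 8-fold in the positive direction, 214 (61.1%) were falls in type I joined to rises in type IV, and 88 (25.1%) were rises in type IV alone. Their median type I effect was -1.22 and their median type IV effect 2.86, and the type I effect was the larger of the pair in size for 95 of them (27.1%). Of the 139 in the negative direction, 67 (48.2%) were falls in type IV alone, 44 (31.7%) were opposite changes and 25 (18%) were falls in both. Here the median type I effect was 0.0104 and the median type IV effect -3.65, and type I had the larger effect in 13 (9.35%). No test was made of these shares, because the difference that chose the probes contains both effects.

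**Figure D2:**
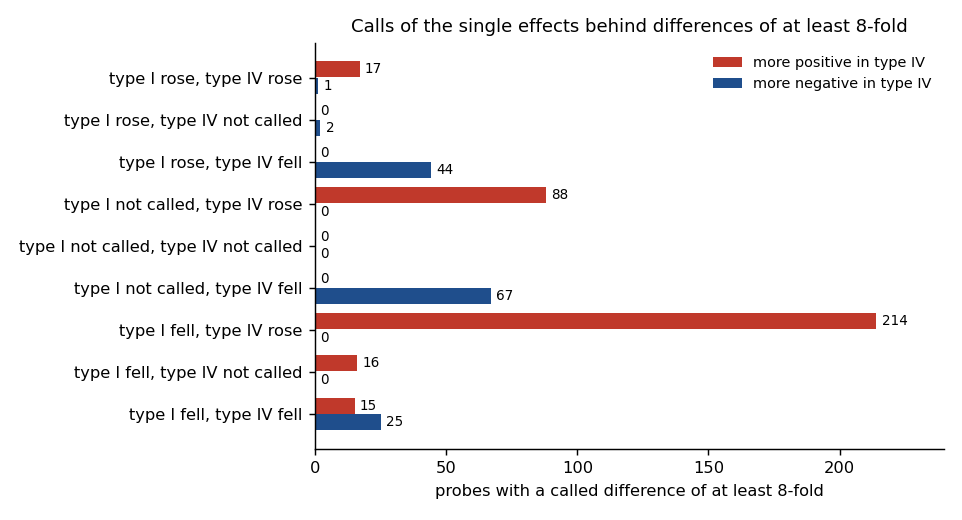
Bars give the number of probes with a called difference of at least 8-fold (x axis) in each combination of the type I call and the type IV call (y axis), red where the type IV effect was more positive and blue where it was more negative. The longest red bar, 214 probes, is the class lower in type I and higher in type IV, and the longest blue bar, 67 probes, is the class that fell in type IV with no call in type I.

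All 10 of the most positive differences belonged to transcripts that fell in type I but rose in type IV. The largest was that of whfl_allContig550. Its level (log2, relative to the 75th percentile of the array) was 3.20 and 3.26 in hexaploid wild type versus -5.51 and -5.42 in type I, and 0.18 and 0.04 in diploid wild type against 6.04 and 5.60 in type IV. Necrosis and wild-type arrays were far apart in both wheats and in opposite order. The fall in type I was 414-fold and the rise in type IV 52.5-fold, which gave a difference of 14.41 (SE 0.205, limma adjusted p = 8.55e-07). The processed intensity on the type I arrays was 52.9 and 52.0, against 15454 and 16667 in their wild type.

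The next probe, wheat0130Contig13798, had nearly the same pattern on the arrays. It read 3.12 and 3.23 in hexaploid wild type, -5.49 and -4.96 in type I, and 0.13 and -0.04 in diploid wild type against 5.82 and 5.41 in type IV. Again the groups did not overlap within a wheat, and the difference was 13.97 (SE 0.29, adjusted p = 3.29e-06). For whsh_allContig408 most of the difference lay in the diploid. That probe was at -1.06 and -1.0 in hexaploid wild type and at -4.92 and -5.11 in type I, and at -4.75 and -4.34 in diploid wild type against 5.53 and 4.67 in type IV. Its rise of 9.64 was the highest type IV effect among all tested probes, and the difference was 13.63 (SE 0.397, adjusted p = 6.58e-06). Intensities were lowest on its diploid wild-type arrays, 21.9 and 27.7, where the probe was still well above background.

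In whsh_allContig512 the type I fall made up most of the difference. Levels were 1.48 and 1.45 in hexaploid wild type, -6.28 and -5.77 in type I, and 3.85 and 3.72 in diploid wild type against 6.48 and 6.56 in type IV. The arrays of a group were close to each other and the groups were apart. The type I effect was -7.49, the type IV effect 2.73 and the difference 10.22 (SE 0.226, adjusted p = 3.94e-06).

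Of the same shape was rwhvd5o05_202, whose difference was 10.02 (SE 0.346, adjusted p = 1.04e-05). Levels ran 3.45 and 3.50 in hexaploid wild type, -2.87 and -2.96 in type I, and 2.18 and 2.19 in diploid wild type versus 6.23 and 5.39 in type IV. The most even arrays among these 10 were those of wheat0130Contig14940. Its values were -0.39 and -0.31, then -3.11 and -3.09, in hexaploid wild type and type I, and -2.06 and -2.22, then 4.49 and 4.54, in diploid wild type and type IV. With arrays that close, its difference of 9.40 had a standard error of 0.109. The other four were wh22g14 (9.42), wheat0130Contig2873 (8.91), wheat0130Contig10878 (8.89) and wheat0130Contig8100 (8.86), and each had type I arrays below and type IV arrays above their wild type.

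**Figure D3:**
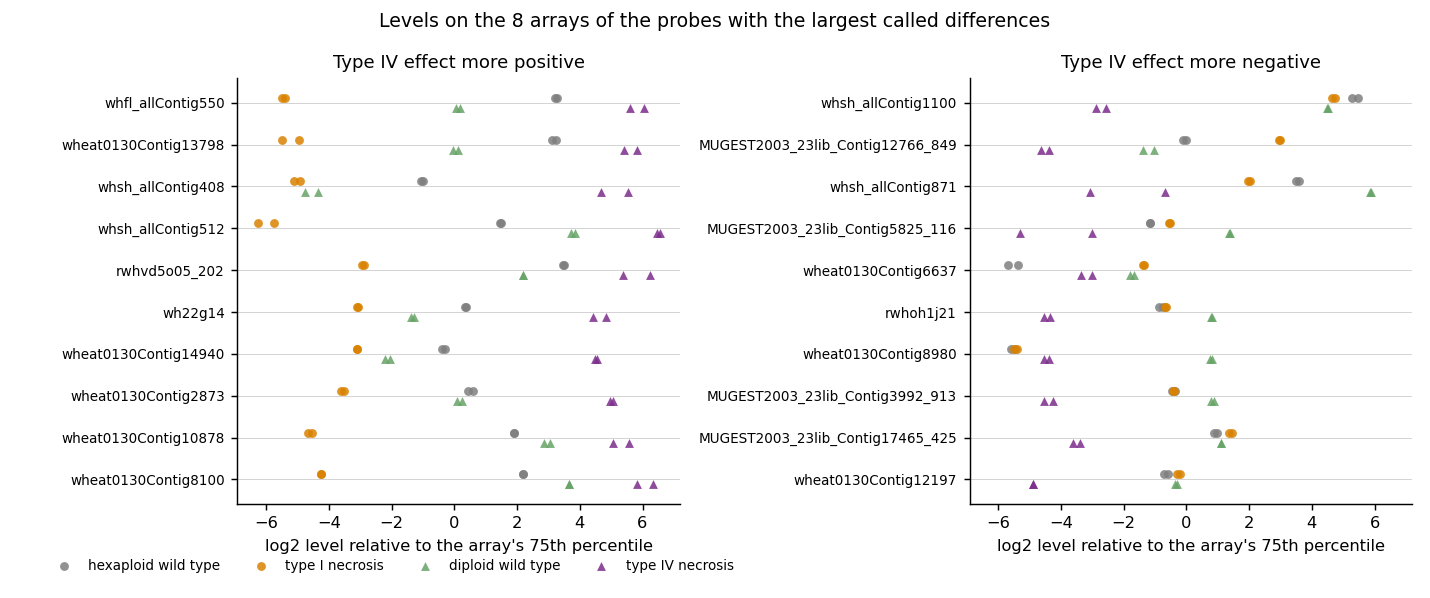
Points give the level on each of the 8 arrays (x axis, log2 relative to the 75th percentile of the array) of the 10 probes with the most positive differences (left) and the 10 with the most negative (right). On the left every type I array (orange) lies below its wild type (grey) and every type IV array (purple) above its wild type (green); on the right the type IV arrays lie below their wild type in every probe, while the type I arrays lie above, next to or below theirs.

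The most negative differences were mainly strong falls in type IV. The largest was that of whsh_allContig1100, a bright probe that fell in both hybrids. It was at 5.46 and 5.29 in hexaploid wild type, 4.65 and 4.75 in type I, and 4.49 and 4.50 in diploid wild type against -2.56 and -2.89 in type IV. The groups were apart in both wheats, but by far more in the diploid: the effects were -0.68 in type I (adjusted p = 0.0049) and -7.22 in type IV, and the difference was -6.54 (SE 0.173, adjusted p = 4.81e-06). The small type I fall was not called with spike-in scaling.

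An opposite change was seen in MUGEST2003_23lib_Contig12766_849, the second on this side. Its levels were -0.01 and -0.12 in hexaploid wild type versus 2.95 and 2.97 in type I, and -1.05 and -1.38 in diploid wild type against -4.39 and -4.65 in type IV. It rose by 3.03 in type I and fell by 3.30 in type IV, with a difference of -6.33 (SE 0.192, adjusted p = 6.63e-06). In wheat0130Contig6637 the rise in type I was the larger part, from -5.38 and -5.70 in hexaploid wild type to -1.35 and -1.40. The diploid levels were -1.79 and -1.67 in wild type and -3.38 and -3.03 in type IV, and the difference was -5.64 (SE 0.211, adjusted p = 1.28e-05). Its fall of 1.47 in type IV was not called with spike-in scaling, which left -0.13. Rises in type I were smaller in the remaining probes of this kind, 0.47 in MUGEST2003_23lib_Contig17465_425 and 0.39 in wheat0130Contig12197, whose type IV effects were -4.61 and -4.56. With spike-in scaling the type I rise of wheat0130Contig12197 was not called (adjusted p = 0.0566).

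Falls called in type IV alone made up 5 of the 10 as analysed here, but for some of them the missing type I call depends on the setting. The clearest was rwhoh1j21, at -0.88, -0.76, -0.66 and -0.70 on the hexaploid arrays, in the order wild type then type I. In the diploid it went from 0.80 and 0.78 in wild type to -4.34 and -4.56 in type IV. The hexaploid groups lay next to each other and the diploid groups far apart, and the difference was -5.38 (SE 0.129, adjusted p = 4.12e-06). MUGEST2003_23lib_Contig3992_913 had a type I effect of 0.01 and a type IV effect of -5.24. In wheat0130Contig8980 the type I effect was 0.08 and the type IV effect -5.25, but its hexaploid levels lay between -5.60 and -5.40, at intensities of 35.7 to 56.9. With normexp background correction its type I effect was -0.20 and called.

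In the other 2 of these 5 the type IV arrays disagreed. The probe whsh_allContig871 was at 5.89 and 5.87 in diploid wild type and at -0.67 and -3.07 in type IV, and at 3.50 and 3.60 in hexaploid wild type versus 1.96 and 2.02 in type I. Both type IV arrays were below both wild-type arrays, but far from each other, and the difference of -6.19 had a standard error of 0.954 (adjusted p = 0.0023). Its type I effect of -1.56 missed the threshold (adjusted p = 0.097), although the hexaploid groups lay apart. The spread is shared over the groups of a probe. Its standard deviation was 1.69 in type IV against 0.07 in hexaploid wild type and 0.04 in type I. With spike-in scaling the type I effect was a called fall, at -1.14. MUGEST2003_23lib_Contig5825_116 behaved alike in the diploid, with type IV arrays at -3.02 and -5.33, and its difference was -6.16 (SE 0.918, adjusted p = 0.002). Its hexaploid groups did not overlap, at -1.18 and -1.17 in wild type versus -0.54 and -0.55 in type I. The type I effect of 0.63 (SE 0.649) was not called, but with spike-in scaling it was a called rise of 1.04. With spreads this wide, a missed type I call in these 2 probes does not show that the level was unchanged.

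Among transcripts that rose in both hybrids, the largest differences were those in which type IV rose more. The probe wheat0130Contig963 stood at -4.87 and -4.62 in hexaploid wild type, -3.88 and -3.69 in type I, and -3.61 and -3.54 in diploid wild type versus 2.36 and 2.90 in type IV. Groups did not overlap in either wheat, and the difference was 5.24 (SE 0.261, adjusted p = 3.53e-05). MUGEST2003_23lib_Contig10592_200 followed with 5.18, wheat0130Contig4675 with 4.40 and whh1g13 with 3.97. Their type I rises of 0.96, 0.55, 0.90 and 0.30 were small beside type IV rises of 6.20, 5.72, 5.30 and 4.27, and the type I call of wheat0130Contig963, MUGEST2003_23lib_Contig10592_200 and whh1g13 was lost with normexp background correction.

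Among transcripts that fell in both, the largest differences included falls that were greater in type I. The probe rwhsh15n12 had the lowest type I effect of all tested probes. Levels were 5.77 and 5.78 in hexaploid wild type versus -5.11 and -5.13 in type I, and 2.56 and 2.48 in diploid wild type against 0.14 and 0.09 in type IV. Replicate arrays were close together, and the falls of 10.90 in type I and 2.41 in type IV differed by 8.49 (SE 0.0915, adjusted p = 5.78e-07). In whsh_allContig574 the levels went from 6.11 and 6.07 to -3.74 and -3.71 in the hexaploid, and from 6.44 and 6.49 to 2.84 and 2.85 in the diploid. These falls of 9.81 and 3.62 differed by 6.19 (SE 0.0857, adjusted p = 8.55e-07). The fall of 6.32 in type I of wheat0130Contig12804 was joined to a type IV effect of only -0.45, which was 0.07 with quantile normalization and 0.89 with spike-in scaling, so its direction in type IV depends on the scaling. Its difference of 5.87 kept its sign and its call under the settings tried.

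In other probes the effect of 1 necrosis type alone was called. Among rises called in type IV alone, the largest difference was that of wheat0130Contig2544, whose diploid wild-type arrays disagreed, at -0.78 and -3.33. On the type IV arrays it was at 4.34 and 5.15, and on the hexaploid arrays at -0.96 and -1.09 in wild type and -1.61 and -1.62 in type I. The type IV arrays were above both wild-type arrays, and the difference of 7.39 had a standard error of 1.07 (adjusted p = 0.00176). The hexaploid groups did not overlap either, with a type I effect of -0.59 (SE 0.753). With a shared spread this wide, its missed type I call does not show that the level was unchanged. The probes wheat0130Contig9653 (5.56, SE 0.243), wheat0130Contig1517 (5.27, SE 0.62) and whsh_allContig778 (5.26, SE 0.315) came next. The type I effect of wheat0130Contig9653, 0.42 and not called, was a called rise with either quantile normalization (0.55 in both) and with spike-in scaling (0.84). For whsh_allContig778 the hexaploid groups overlapped, at -0.45 and -0.55 in wild type and -0.48 and -0.43 in type I, while the diploid went from -2.97 and -3.17 to 1.87 and 2.60.

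Among falls called in type I alone, the largest difference was that of whsh_allContig933, which went from 2.63 and 2.51 in hexaploid wild type to -5.13 and -4.97. In diploid wild type this probe was at 4.36 and 4.39, and the type IV arrays lay on either side, at 5.48 and 3.52. The difference was 7.75 (SE 0.787, adjusted p = 0.000437). Likewise whsh_allContig217 fell by 6.90 in type I, and its type IV arrays at 5.83 and 3.87 lay around a wild type at 4.84 and 4.80. The difference was 6.92 (SE 0.788, adjusted p = 0.00069). In whsh_allContig499 and whsh_allContig745 the type IV arrays were also far apart, at 3.26 and 0.36 and at 3.86 and 0.84, and the differences were 5.86 (SE 1.15) and 5.38 (SE 1.2). With arrays that far apart, a missed call in type IV does not show that the level was unchanged there.

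Differences were smaller among rises called in type I alone. In MUGEST2003_23lib_Contig3816_293 the level went from -2.06 and -2.20 in hexaploid wild type to 2.03 and 2.06 in type I, with -3.16 and -3.11 in diploid wild type against -3.10 and -1.94 in type IV. The hexaploid groups were far apart, the type IV arrays were above or level with their wild type, and the difference was -3.56 (SE 0.475, adjusted p = 0.00128). The others were wheat0130Contig4197 (-3.54), rwhoh12h13 (-2.82) and whfl_allContig541 (-2.74). The last had a standard error of 0.664 and its difference was not called with array weights per group (adjusted p = 0.0527). That type I alone was called depends on the setting. With normexp background correction the type IV effects of these 3 were called falls, at -0.76, -0.50 and -1.04. With spike-in scaling MUGEST2003_23lib_Contig3816_293, wheat0130Contig4197 and rwhoh12h13 had called type IV rises of 1.96, 1.05 and 1.1. On the diploid arrays wheat0130Contig4197 had intensities of 29.3 to 76.0 and whfl_allContig541 of 20.2 to 55.3, while the dimmest tested value was 15.7. A missed type IV call in such dim probes does not show that the level was unchanged.

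Large changes shared by the hybrids were nearly all falls as scaled here, but the number of falls depends on the scaling. With spike-in scaling, 78 probes fell at least 8-fold in type IV, 54 of which also fell in type I by any amount. There 1062 probes rose at least 8-fold in type IV, 470 of which also rose in type I. As reported, both effects were called, of the same sign and at least 8-fold each in 87 probes, of which 81 fell and 6 rose. For 39 of them the difference was called, including 22 falls larger in type I and 12 larger in type IV. The probe with the closest pair of effects was wheat0130Contig14423, at 5.49 and 5.42 in hexaploid wild type, 2.28 and 2.40 in type I, and 7.22 and 7.30 in diploid wild type versus 4.49 and 3.82 in type IV. Its effects were -3.12 in type I necrosis and -3.11 in type IV. The difference was 0.01 with a 95% interval from -0.68 to 0.70, so a difference anywhere in that range remains possible for this probe. For wheat0130Contig11344, which fell by 3.23 and 3.19, the interval ran from -0.39 to 0.45. Similar falls were seen in wh9n13, with 3.24 and 3.19 and an interval from -0.36 to 0.45, and in wheat0130Contig6681, with 3.30 and 3.33 and an interval from -0.90 to 0.84. These 4 were chosen for their likeness, and the differences moved with the scaling: under quantile normalization over the 8 arrays they were 1.00 for wheat0130Contig14423, 1.54 for wheat0130Contig11344 and 0.47 for wh9n13, all called, and 0.28 for wheat0130Contig6681, not called.

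Rises and falls carried over between the hybrids to different degrees. Of 463 probes that fell at least 8-fold in type IV, 353 (76.2%) also fell in type I and 16 rose. The 233 probes that rose at least 8-fold in type IV were split in type I, where 69 (29.6%) rose, 77 (33%) fell and 87 were not called, and their median type I effect was -0.12. More of them rose than fell in type I with median centring (108 against 84) and with quantile normalization within each wheat (90 against 85). The same held among the brighter probes (45 against 34, median 0.20) and with spike-in scaling (470 against 112, median 0.72). The median type I effect was 0.04 without type IV replicate 1 and 0.03 without diploid wild type replicate 1. It stayed negative when any other single array was left out. Rises of 2-fold to 8-fold in type IV were more often shared: of 2270 such probes, 49.4% rose in type I and 12.6% fell. The share that rose in type I was lower among the 8-fold rises than among the 2-fold to 8-fold rises under all settings but spike-in scaling, where it was 44.3% against 26.3%. The falls at least 8-fold in type IV were shared in 52.2% to 89.6% over all settings. No test was made of these shares, since probes are not independent.

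Read from the type I side, most strong effects of either sign kept that sign in type IV. Of the 47 probes that fell by more than 5 log2 units in type I, 34 (72.3%) fell in type IV and 11 (23.4%) rose. Of 1566 that fell by 1 to 3, 80.1% fell in type IV. The 21 probes that rose by more than 3 in type I rose in type IV in 16 cases (76.2%) and fell in 3. Among 5285 small rises of up to 1 the shares were 57.1% and 17.1%. The sharing depends on the scaling. Over type I falls of any size, 3559 of 4768 also fell in type IV as reported, and 709 of 1309 with spike-in scaling. For type I rises that also rose in type IV the counts were 3435 of 5910 and 3889 of 4239.

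**Figure D4:**
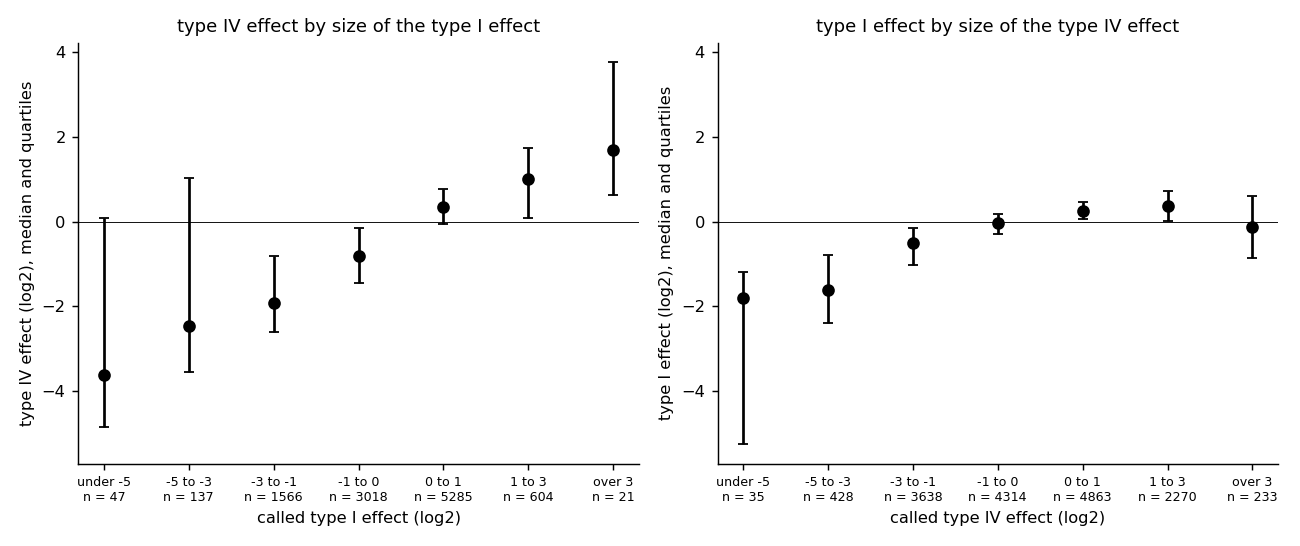
Points give the median, and bars the quartiles, of the effect in the other hybrid (y axis, log2) for probes grouped by the size of their called effect (x axis, log2, with the number of probes). In the left panel the median type IV effect goes from -3.62 to 1.70 with the type I effect, while in the right panel the median type I effect reaches 0.37 for type IV effects of 1 to 3 and is -0.12 for those over 3.

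Some clones are on the array with a pair of probes, whose identifiers share the clone name and differ by a leading r, and these give the same transcript a repeat measurement where both read the same strand. The sources used here do not say what the r stands for. Over 723 such pairs the differences had a correlation of 0.628, with a median gap of 0.25 log2 units. The levels of the paired probes had a correlation of 0.0245. Both probes were called in 285 pairs, in the same direction in 256 and in opposite directions in 29, while 222 pairs had 1 probe called and 216 none. Probes of a pair share arrays, so this describes the probes and not the plants.

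In 6 pairs both probes had a difference of at least 8-fold, all with matching sign; these pairs were chosen after their values were seen. The probes whdl6j11 and rwhdl6j11 had differences of 8.43 (SE 0.389) and 8.36 (SE 0.287), with type I effects of -4.10 and -5.04 and type IV effects of 4.33 and 3.32. For clone whf28l09 the differences were 5.64 and 6.73, for whfl2n10 4.32 and 5.13, for wh30m21 4.05 and 3.24, for whdl18a16 3.46 and 3.05, and for whr13a13 3.01 and 4.47. Opposite differences of at least 1 log2 unit in both probes occurred in 6 of the 29 opposite pairs. Among them was clone whe8d06, where the probe named for the clone had -1.81 and its partner 8.73. A named clone therefore does not by itself fix the direction, and the strand or transcript that each probe reads was not tested.

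Called differences were spread over all kinds of identifier. Among the larger sets, the share called ran from 50.7% of 832 probes named whfl_allContig to 61.6% of 796 named whsh_allContig, around the 56.0% over all. Differences of at least 8-fold made up 5.28% of the whsh_allContig probes (28 positive, 14 negative), 3.19% of 3636 MUGEST2003_23lib_Contig probes and 2.48% of 8984 wheat0130Contig probes. They made up 1.12% of 3205 probes with wh clone names and 0.992% of 1008 MUG probes. The sources used here do not say what these name sets stand for, and no test was made across them. The share called was similar from dim to bright probes, and negative calls outnumbered positive ones at every level, most strongly among the dimmest. In 4 classes of equal size by mean level the share called was 53.6%, 56.6%, 56.3% and 57.3% in rising order. The share of at least 8-fold differences was 2.09%, 2.72%, 2.58% and 1.9%. The dimmest class had 821 positive and 2002 negative calls (median difference -0.31), and the next 3 had 1193 and 1790, 1298 and 1669, and 1247 and 1771 (medians -0.11, -0.06 and -0.11).

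A single tested probe carried a gene name from the lists searched, RD29B, which in Arabidopsis is known as a gene responsive to dehydration and abscisic acid. Of the 6 probes of the cold, drought and abscisic acid list on the array it was the sole member of the tested set, so the list gives 1 called of 1. Its levels were -4.78 and -5.08 in hexaploid wild type versus -5.02 and -5.13 in type I, where the groups were not clearly apart. In diploid wild type it was at -3.26 and -3.44, above both type IV arrays at -4.32 and -4.17. The type I effect of -0.15 was not called (adjusted p = 0.362), the type IV effect was a fall of 0.89 (adjusted p = 0.00068), and the difference was -0.75 (SE 0.175, adjusted p = 0.0117). With spike-in scaling the type IV effect was 0.45 (adjusted p = 0.205), so the fall lost its call and its sign, and the difference was 0.18 (adjusted p = 0.778). With normexp the type I effect was a called fall of 0.28 (adjusted p = 0.0231). The difference kept its direction but was not called with array weights per kind of wheat (adjusted p = 0.0518) or per group (adjusted p = 0.0673). Of the other names, Wcor15 was well above background on the diploid arrays alone, and RD29A, cor47, DREB2A and DREB2B were well above background on no array.

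The rule that a probe be above background on every array leaves out transcripts that are absent from 1 group. Just outside it lay 925 probes that were well above background on 7 of the 8 arrays, with a median intensity of 21.2 on the array that failed, while the dimmest value of a tested probe was 15.7. The failing array was most often diploid wild type 1, with 349 probes, or type IV 2, with 252. The median size of the measured difference was 0.931 among them and 0.512 among the tested probes. Further outside, 3145 of the 26827 probes above background on all 4 hexaploid arrays were above background on no diploid array, and 243 of 21860 the other way round.

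**Figure D5:**
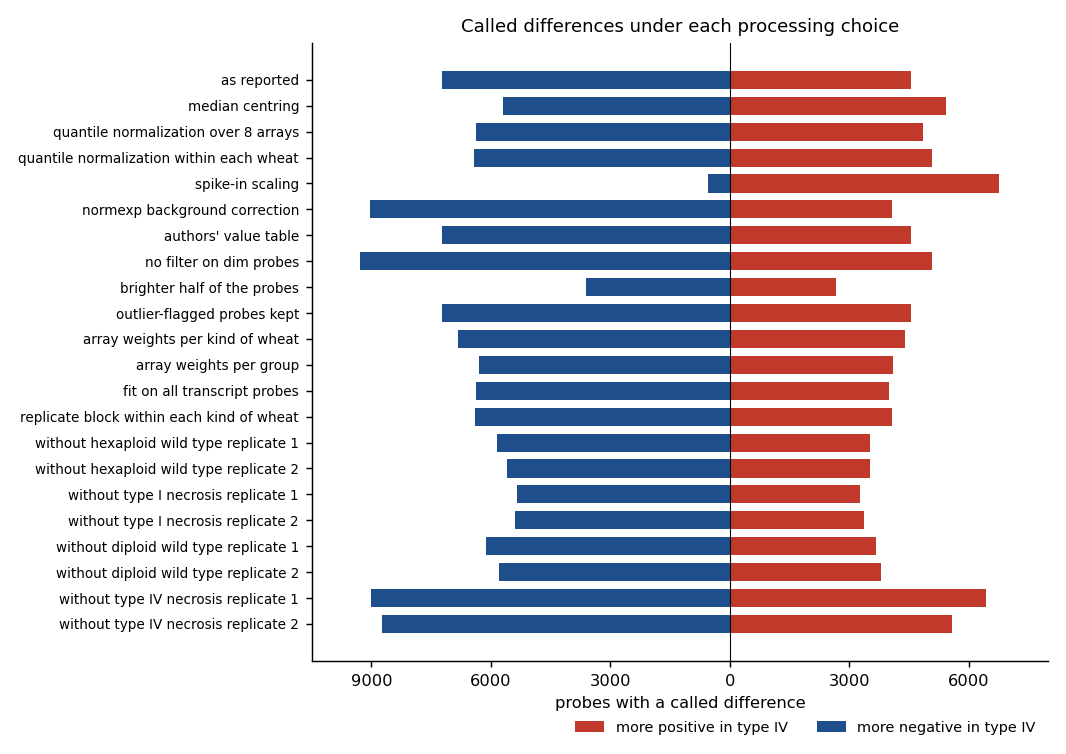
Bars give the number of probes with a called difference (x axis), to the right where the type IV effect was more positive and to the left where it was more negative, for the reported analysis (top) and each alternative (y axis). Negative differences outnumber positive ones throughout except with spike-in scaling, where 6749 are positive and 547 negative.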

How the data were processed

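The authors deposited scanner files of 8 single-colour Agilent arrays, 1 per sample, with processed intensity per spot that was background-corrected by Feature Extraction, version 10.10.1.1 per the file headers and 9.5 per the submitters' processing notes. The authors' value table equals that intensity times 1 factor per array (0.926 to 3.12). It is linear and not centred, with column medians of 335.1 and 338.1 for hexaploid wild type, 333.4 and 327.4 for type I necrosis, 206.2 and 205.9 for diploid wild type, and 200.9 and 188.8 for type IV necrosis. From the deposited intensity, log2 was taken here and the 75th percentile over transcript spots of each array subtracted. Control spots were left out.

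Models were fitted with lmFit, contrasts.fit and eBayes of limma 3.58.1 (R 4.3.3), using 4 group means over all 8 arrays, 4 residual and 2.35 prior degrees of freedom, and 1 shared spread per probe. P-values were adjusted over 21064 probes, and treat tested differences beyond 2-fold. The fit was tested on simulated data. Probes named were the 10 most positive and 10 most negative called differences, the 4 largest in each class of calls, the 4 closest large effects and probes with list gene names; the paired clones are additions. Of 18 keyword lists, 17 matched 0 probes. Members and lists were chosen with earlier results of these data known. Alternatives were 4 other scalings, normexp (on the median signal, since no mean signal column is given), the value table, 3 filters, array weights, a fit on all probes, a replicate block and leaving out each array. The number of arrays limits the precision.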

Additional observations from a re-analysis of the deposited data

Results flagged for a closer look

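The results here were singled out because the effect of necrosis differed between the diploid and the hexaploid hybrids in a test of the difference itself (limma, adjusted p under 0.05). That held for 11791 of the 21064 tested probes, and the cause was not tested.

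Among probes with the most positive differences (log2) were whfl_allContig550 with 14.41, wheat0130Contig13798 with 13.97, whsh_allContig408 with 13.63, whsh_allContig512 with 10.22 and rwhvd5o05_202 with 10.02. They were followed by wh22g14 with 9.42, wheat0130Contig14940 with 9.40, wheat0130Contig2873 with 8.91, wheat0130Contig10878 with 8.89 and wheat0130Contig8100 with 8.86. The most negative were whsh_allContig1100 with -6.54, MUGEST2003_23lib_Contig12766_849 with -6.33, whsh_allContig871 with -6.19, MUGEST2003_23lib_Contig5825_116 with -6.16 and wheat0130Contig6637 with -5.64. Next came rwhoh1j21 with -5.38, wheat0130Contig8980 with -5.32, MUGEST2003_23lib_Contig3992_913 with -5.24, MUGEST2003_23lib_Contig17465_425 with -5.08 and wheat0130Contig12197 with -4.95.

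Leading their classes of calls were wheat0130Contig963 with 5.24 and MUGEST2003_23lib_Contig10592_200 with 5.18, which rose in both, and rwhsh15n12 with 8.49, which fell in both. As analysed here, the type IV effect alone was called in wheat0130Contig2544, a rise with a difference of 7.39, and in wheat0130Contig9653 with 5.56, whose type I rise was called with quantile normalization and with spike-in scaling. The type I effect alone was called for the rises of MUGEST2003_23lib_Contig3816_293 with -3.56 and wheat0130Contig4197 with -3.54 and for the falls of whsh_allContig933 with 7.75 and whsh_allContig217 with 6.92. The type IV effects of these 4 were called rises with spike-in scaling, and that of wheat0130Contig4197 a called fall with normexp. Of the probes in this section, whsh_allContig871, MUGEST2003_23lib_Contig5825_116, wheat0130Contig2544, whsh_allContig933 and whsh_allContig217 had arrays of 1 diploid group about 2 log2 units or more apart.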

How the results depend on the processing

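With spike-in scaling, whose fit gave all probes 1 shared spread, 7296 differences were called, 6749 of them positive (92.5%) and 547 negative, with 351 opposite effects, 5548 type I calls and 0 calls in the gene list. The share of positive calls was 38.7% as reported, 48.7% with median centring and 31.1% with normexp (4069 positive, 9032 negative). With no filter on dim probes, 37758 probes were tested and 14384 differences (38.1%) were called, against 56.0% as reported. Of these 37758 probes, 2777 had a difference beyond 2-fold and 24606 a called type IV effect. Among the 10532 brighter probes, fewer by construction, 6255 differences were called (2656 positive, 3599 negative), 867 beyond 2-fold and 861 opposite, with 6234 type I and 8311 type IV calls. Array weights per group or per kind of wheat left 0 gene list calls and 10401 or 11223 called differences.

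Leaving out 1 array gave 8613 to 15449 called differences, 3279 to 6431 positive and 5334 to 9018 negative, 1173 to 3517 beyond 2-fold, 830 to 2868 opposite, 6349 to 14663 type I calls and 13952 to 17191 type IV calls. In such a fit the lone array of a group is assumed to vary like the other groups. Opposite effects numbered 1002 and 975 without hexaploid wild type 1 or 2, 830 and 868 without type I 1 or 2, and 2850 and 2868 without type IV 1 or 2. Type I calls were 6837, 7103, 6349 and 6403 without each hexaploid array in that order. Beyond 2-fold, 1173 were called without type I 1 and 3517 without type IV 1. The cause was not tested.

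Same-numbered arrays share only a number: their deviations correlated at -0.0851 in the hexaploid and -0.00572 in the diploid. With the replicate number within each wheat as a block, 10470 differences were called (4081 positive, 6389 negative), 1514 beyond 2-fold and 1314 opposite, with 9241 type I and 14985 type IV calls.

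Of the probes named by the rule, those with a called difference kept its direction in every setting except RD29B, at 0.178 with spike-in scaling. The near-equal pairs turned sign: wheat0130Contig6681 was 0.109 with median centring, 0.282 and 0.0233 with quantile normalization over 8 arrays or within each wheat and 0.899 with spike-in scaling. Leaving out 1 array gave -0.437 to 0.378 for wheat0130Contig6681, -0.327 to 0.343 for wheat0130Contig14423, -0.1435 to 0.2053 for wheat0130Contig11344 and -0.115 to 0.202 for wh9n13.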
